A study of Mus musculus with 3 samples.

Results

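The 10 genes described here are 3 Janus kinases (Jak1, Jak2 and Tyk2), 4 signal transducers and activators of transcription (Stat3, Stat5a, Stat5b and Stat6) and 3 feedback inhibitors of the SOCS family (Socs1, Socs3 and Cish). They were taken by symbol from the 55536 Ensembl genes of the mouse annotation M21, and all 10 were found. The libraries form a single group of 3 biological replicates. Each is total RNA, depleted of ribosomal RNA, from the cytosolic fraction of C57BL/6J macrophages grown from bone marrow and exposed to 100 ng/ml Lipid A, the part of lipopolysaccharide that TLR4 recognises, for 10 minutes. All 3 replicates carry the same donor identifier, neither age nor sex was recorded, and nothing in the labels tells whether separate animals or cultures were used. The spread given below may therefore be partly technical. No unstimulated library, other time or nuclear fraction was analysed here. The values are therefore levels in the cytosolic fraction at 10 minutes and not responses to Lipid A.

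Cytokine receptors of this pathway have no kinase activity of their own and carry JAKs on their intracellular tails. When a cytokine joins the receptor chains, the JAKs phosphorylate the tails, STATs dock there, are phosphorylated, form dimers and act in the nucleus as transcription factors. Among the genes that STATs switch on are SOCS genes, whose proteins bind JAKs or receptor tails and shut the signal off. In macrophages the pathway carries the signals of interferons, IL-10, IL-6, IL-4 and GM-CSF, and after a TLR4 ligand it is classically engaged in a second wave, by cytokines that the cell itself secretes.

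Replicates 1, 2 and 3 held 33825547, 54667365 and 43176007 expected counts over Ensembl genes. Expected counts are the quantifier's estimates of reads per gene, and TPM corrects them for transcript length and sets every library to one total. Each of the 10 macrophage markers reached 1 TPM, with a summed level of 9086, 7923 and 8771 TPM. Markers of other cells were low. The 7 neutrophil markers summed to between 22.4 and 35.9 TPM with Ly6g at 0, and the 5 T and NK cell markers to between 0.15 and 0.21 TPM. The 5 B cell markers summed to between 0.99 and 1.12 TPM, the 5 dendritic cell markers to between 2.08 and 2.29 TPM, and the 5 mast cell and basophil markers to between 0.60 and 0.76 TPM. The 3 erythroid markers reached at most 0.06 TPM in sum with Hba-a1 and Hbb-bs at 0, and the 4 stromal markers likewise at most 0.06 TPM with Pdgfra at 0. In such bulk RNA, fewer cells of a type and less RNA per cell cannot be told apart.

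Among the kinases Jak1 was the highest. Jak1, the kinase shared by interferon, gp130 and common gamma chain receptors, had 37.1, 35.4 and 39.7 TPM in replicates 1, 2 and 3 (37.4 ± 2.17 TPM, SD, n = 3). Tyk2, the partner of Jak1 on the type I interferon and IL-10 receptors, had 10.9, 9.89 and 10.4 TPM (10.4 ± 0.490 TPM, SD, n = 3). Jak2, the kinase of the GM-CSF and erythropoietin receptors and of one chain of the interferon gamma receptor, had 7.15, 6.14 and 6.66 TPM (6.65 ± 0.505 TPM, SD, n = 3). The 3 ranges did not overlap, and replicate 2 was the lowest library for each kinase. Jak1 accounted for 68.7% ± 1.32 of the TPM of the 3 kinases (SD, n = 3), Tyk2 for 19.1% ± 0.708 and Jak2 for 12.2% ± 0.661. As log2(TPM + 1), a scale on which low genes differ less than they do as ratios, Jak1 exceeded Tyk2 by 1.75 ± 0.08 and Jak2 by 2.33 ± 0.09, and Tyk2 exceeded Jak2 by 0.58 ± 0.03, each in 3 of 3 libraries.

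**Figure D1:**
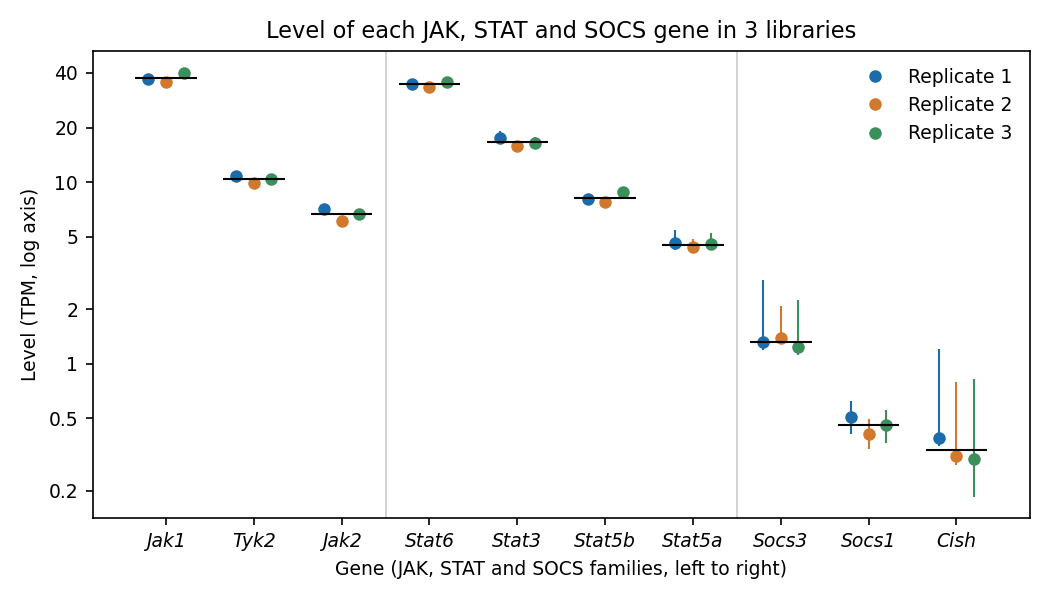
Level of each gene in TPM on a log axis, with the JAK, STAT and SOCS families from left to right. Points are the 3 libraries, vertical lines the deposited credible interval of each, and horizontal bars the mean. Jak1 at 37.4 and Stat6 at 34.5 TPM lead, and Socs1 and Cish lie below 1 TPM with credible intervals that overlap each other.

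Stat6, the transducer of IL-4 and IL-13, was the highest of the 4 STAT genes. It had 34.6, 33.3 and 35.6 TPM in replicates 1, 2 and 3 (34.5 ± 1.18 TPM, SD, n = 3), which is 54.0% ± 0.591 of the TPM of the 4 genes. Stat3, the transducer of IL-10 and IL-6, had 17.5, 15.9 and 16.5 TPM (16.6 ± 0.845 TPM, SD, n = 3). The pair that answers GM-CSF and other beta common chain cytokines was lower. Stat5b had 8.10, 7.75 and 8.78 TPM (8.21 ± 0.524 TPM, SD, n = 3) and Stat5a had 4.62, 4.42 and 4.54 TPM (4.53 ± 0.101 TPM, SD, n = 3). The ranges of the 4 STAT genes were separate from one another. Stat3 minus Stat6 was -1.01 ± 0.06 on the log2(TPM + 1) scale and Stat5a minus Stat5b was -0.74 ± 0.07, negative in 3 of 3 libraries. Stat3 exceeded Stat5a by 1.67 ± 0.04 and Stat5b by 0.94 ± 0.09 on that scale, and Stat6 exceeded Stat5a by 2.68 ± 0.04, each in 3 of 3 libraries.

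Stat3 makes several proteins from one gene. The transcript Stat3-203 encodes the full-length alpha form of 770 codons. Stat3-201 encodes 769 codons because one exon ends 3 bases earlier, at an alternative splice donor, and skips chr11:100893074-100893076 of mm10 on the minus strand, which leaves out a serine codon. Stat3-202 encodes the shorter beta form of 722 codons, in which the transactivation domain at the carboxyl end is replaced by a short tail. Its splice acceptor skips the first 50 bases of a later exon, at chr11:100889541-100889590. The sequences below, from the M21 transcripts of mm10, show both sites in the coding strand, with the bases that Stat3-203 keeps and the other form of each pair skips in capitals. Reads across these sites can tell the forms of a pair apart, but such reads were not counted here. The transcripts also differ in where they end and in length, with 4516 bases in Stat3-203, 2927 in Stat3-201 and 6042 in Stat3-202. The shares given next may therefore also rest on reads outside these sites.
Stat3-203 at the 3-base site: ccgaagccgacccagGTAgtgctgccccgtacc
Stat3-201 at the 3-base site: ccgaagccgacccaggtgctgccccgtacc
Stat3-203 at the 50-base site: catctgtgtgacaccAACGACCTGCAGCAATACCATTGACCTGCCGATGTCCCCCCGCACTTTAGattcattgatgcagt
Stat3-202 at the 50-base site: catctgtgtgacaccattcattgatgcagt

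In the first transcript table, which the authors derived from alignments, the alpha form Stat3-203 had 15.4, 14.2 and 14.8 TPM in replicates 1, 2 and 3, or 88.9% ± 1.02 of the TPM of Stat3 (SD, n = 3). Stat3-201 had 0.53, 0.70 and 0.86 TPM, or 4.22% ± 1.11. The beta form Stat3-202 had 0.85, 0.56 and 0.81 TPM, or 4.43% ± 0.781, and it is named here because it is the known second form, after its values were seen. The alpha form was the major one in every library, and the 2 minor forms were close to each other in share. In the second table, derived from the reads directly, Stat3-203 held 80.2% ± 3.84, Stat3-201 6.29% ± 1.59 and Stat3-202 1.39% ± 0.324. A noncoding transcript, Stat3-214, was at 0 in the first table and held 7.86% ± 2.41 in the second, so the minor shares depend on the quantification.

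Stat5a and Stat5b are neighbours on chromosome 11 that face away from each other, and they encode closely related proteins. Their coding sequences, of 2379 and 2358 bases, were identical at 2125 of 2343 aligned bases, or 90.7%. The longest identical run was 324 bases. Of all the 50-base words in the annotated transcripts of Stat5a, 8.21% also occur in those of Stat5b, and 11.0% in the other direction. The authors' counting could therefore split reads between the genes, and both levels carry that uncertainty. The deposited posterior standard deviation of the count, which covers this ambiguity, was only 3.78 to 5.53 reads in either gene, against 950 to 1501 expected counts in Stat5a and 2570 to 3792 in Stat5b. The lines below print 90 coding bases of each gene on its own strand, in mm10, with differing bases in capitals. The first pair, at chr11:100874954-100875043 in Stat5a and chr11:100797681-100797770 in Stat5b, lies across the end of the longest identical run. The second pair is the stretch of 90 aligned bases with the most differences, chosen for that, and it spans an intron in each gene, at chr11:100861425-100861769 in Stat5a and chr11:100804978-100808436 in Stat5b.
Stat5a across the end of the run: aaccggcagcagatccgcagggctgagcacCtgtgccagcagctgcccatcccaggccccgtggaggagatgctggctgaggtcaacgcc
Stat5b across the end of the run: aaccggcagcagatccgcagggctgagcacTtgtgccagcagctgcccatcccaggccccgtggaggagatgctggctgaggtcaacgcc
Stat5a in the most different stretch: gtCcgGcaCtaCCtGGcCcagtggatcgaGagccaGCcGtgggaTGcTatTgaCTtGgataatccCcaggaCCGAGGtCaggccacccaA
Stat5b in the most different stretch: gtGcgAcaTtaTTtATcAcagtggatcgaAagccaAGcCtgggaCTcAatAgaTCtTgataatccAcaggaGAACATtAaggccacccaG

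The first pair differed at 1 of its 90 bases and the second at 28. The genes Stat3 and Stat5a also overlap end to end, on opposite strands, over 72 bases, and Stat6 overlaps Nab2 over 40. It remains unknown here if strand was used in the counting. For both Stat3 and Stat6, however, the posterior standard deviation of the count was 0 in each library. The authors' counting thus left no reads of Stat3 or Stat6 divided with an overlapping gene. Nab2 had 8.51, 8.65 and 9.77 TPM. The antisense gene 1700084C06Rik, which lies over Tyk2, had 0, 4.91 and 4.55 expected counts, against 3121, 4471 and 3535 for Tyk2.

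The feedback inhibitors were the lowest of the 10 genes. Socs3, whose protein binds gp130 and JAKs and ends IL-6 signalling, had 1.31, 1.39 and 1.23 TPM in replicates 1, 2 and 3 (1.31 ± 0.08 TPM, SD, n = 3) from 201, 331 and 217 expected counts. Socs1, the inhibitor of interferon gamma signalling, had 0.51, 0.41 and 0.46 TPM (0.46 ± 0.05 TPM, SD, n = 3) from 87, 109 and 89 counts. Cish, a target and inhibitor of STAT5, had 0.39, 0.31 and 0.30 TPM (0.333 ± 0.0493 TPM, SD, n = 3) from 64, 78 and 33 counts. Together the 3 genes summed to 2.10 ± 0.110 TPM, against 54.5 ± 2.74 TPM for the 3 kinases and 63.9 ± 2.23 TPM for the 4 STAT genes. Socs3 exceeded Socs1 by 0.66 ± 0.09 and Cish by 0.79 ± 0.07 on the log2(TPM + 1) scale. Socs1 exceeded Cish by 0.13 ± 0.03, in 3 of 3 libraries, but with the deposited posterior mean TPM the sign turned and Socs1 minus Cish was -0.095.

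The order of Socs1 and Cish thus rests on the estimate. The posterior mean of Cish was 0.73, 0.51 and 0.47 TPM, and its deposited credible intervals ran from 0.353 to 1.20, from 0.277 to 0.794 and from 0.186 to 0.826 TPM. Those of Socs1 ran from 0.413 to 0.625, from 0.339 to 0.494 and from 0.366 to 0.556 TPM, inside those of Cish in each library. Between libraries, counts are compared per 1000000 of the library size scaled by TMM (CPM). As CPM, Cish was 1.85 in replicate 1 with a 95% Poisson interval from 1.42 to 2.36, 1.46 (1.16 to 1.83) in replicate 2 and 0.763 (0.525 to 1.07) in replicate 3. The interval of replicate 3 lay below those of both other libraries. The highest library was 2.42 times the lowest in CPM but 1.30 times in TPM, and the effective length that the authors' quantifier gave the gene was 2435, 2446 and 1437 bases. These intervals cover counting error only, since reads are not independent molecules without molecular identifiers.

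**Figure D2:**
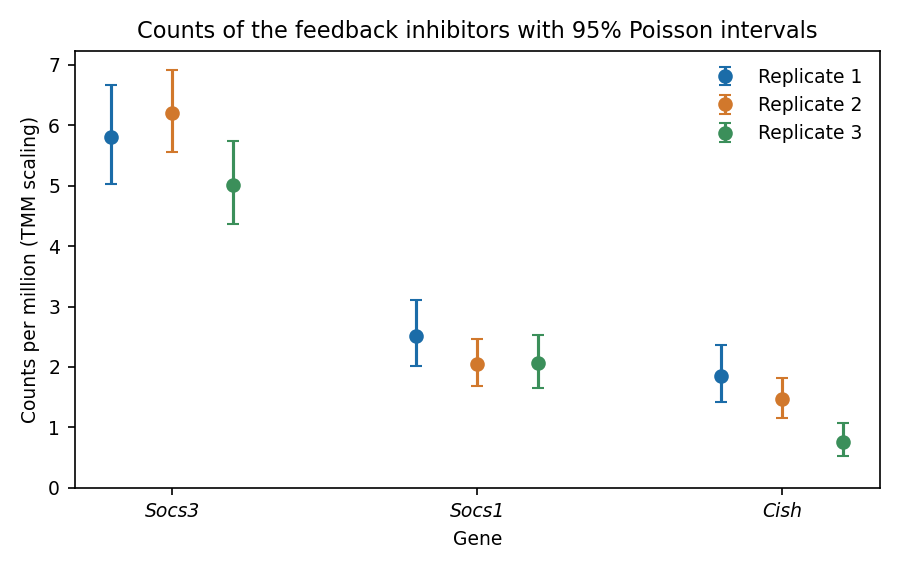
CPM of Socs3, Socs1 and Cish in each library, with TMM scaling and 95% Poisson intervals. The intervals of Socs3 and of Socs1 overlap between libraries, and Cish in replicate 3, at 0.763, lies below replicate 1 at 1.85.

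Transcription start regions were taken from RefSeq on GRCm38.p6, the assembly also called mm10, as 300 bases per start, 250 before and 50 after it. The search was for TTCNNNGAA, the core that STAT dimers are known to bind, which reads the same on both strands. It occurred in 8.30% of 32841 such regions, and 0.457% held it more than once. Among the 12 regions of the 10 genes it was found in Socs3 and in Cish. Socs3 had 1 match, with its first base 154 before the RefSeq start at chr11:117969366. In M21, Socs3-201, which held 100% of the Socs3 TPM in the first table, starts at chr11:117969186. That start lies downstream, outside the 300 bases searched, so the match is further from it than 154 bases. The bases directly before the Socs3-201 start were not searched. Cish had 2 matches 2 bases apart, with first bases at positions 1 and 12 of the transcript. The Socs1 region had none, which says only that these letters are not in that window. The first line below prints the 250 bases before the RefSeq Socs3 start, at chr11:117969367-117969616 on the minus strand. The second prints 30 bases around the Cish matches, at chr9:107296654-107296683 on the plus strand. In both, the matches are in capitals. Both stretches are shown because they hold the matches, so they were chosen by the outcome of the search. Both genes are documented STAT targets, but a match is not evidence of binding.
Socs3 before the start: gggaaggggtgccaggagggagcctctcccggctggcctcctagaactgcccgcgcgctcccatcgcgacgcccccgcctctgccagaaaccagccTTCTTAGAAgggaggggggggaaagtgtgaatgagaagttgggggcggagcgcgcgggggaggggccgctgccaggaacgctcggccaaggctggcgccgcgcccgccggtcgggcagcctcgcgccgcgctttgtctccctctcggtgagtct
Cish around the matches: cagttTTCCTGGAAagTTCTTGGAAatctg

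In M21 the Cish matches lie in the first exon of Cish-201, which starts 633 bases before the RefSeq start, and before the first exon of the other 4 transcripts. Of these, Cish-204 begins 51 bases after the RefSeq start. In the first table Cish-201 had 0.18, 0.14 and 0.03 TPM and Cish-204 had 0.12, 0.11 and 0.12 TPM in replicates 1, 2 and 3. The share of Cish-201 was 43.9%, 43.8% and 9.68%, so replicate 3 stood apart. A short noncoding transcript, Cish-205 of 371 bases, held 14.6%, 0% and 38.7% of the TPM. These shares came from only 0.46, 0 and 1.30 expected counts, or 0.719%, 0% and 3.94% of the counts of the gene. In the second table Cish-201 held 34.1%, 79.7% and 36.6%, another order of the libraries. With 33 to 78 counts in all, the split of Cish between transcripts was not stable at this depth.

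Across all 10 genes the order of mean TPM was Jak1, Stat6, Stat3, Tyk2, Stat5b, Jak2, Stat5a, Socs3, Socs1 and Cish. Of the 9 neighbouring pairs in that order, Jak1 and Stat6 were the one whose ranges over libraries overlapped. Jak1 was still the higher within each library, by 0.11 ± 0.04 on the log2(TPM + 1) scale (3 of 3 libraries). Tyk2 exceeded its neighbour Stat5b by 0.31 ± 0.08, and Stat5b exceeded Jak2 by 0.27 ± 0.10. All 17 differences computed, 11 within families and the others between neighbours, had the same sign in 3 of 3 libraries. In an exact permutation test that flips signs within libraries, two-sided, each had p = 0.25, the smallest that 3 libraries allow, so none could reach 0.05 before or after adjustment. Jak1 stood above 95.4% of the 22028 protein-coding genes in mean TPM, Stat3 above 89.2%, Socs3 above 59.1% and Cish above 52.3%. The 8 genes other than Socs1 and Cish reached 1 deposited TPM in each library, as did 41.6% of protein-coding genes. That division depends on the scale. With TPM rescaled over protein-coding genes, Socs1 had 2.10, 1.70 and 1.75 and Cish 1.61, 1.29 and 1.14 in replicates 1, 2 and 3.

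Differences between libraries were small for the kinase and STAT genes. In a chi-square test of counts against TMM library sizes, with Benjamini-Hochberg adjustment over 13494 genes, 6 of the 10 genes differed beyond counting error at 0.05, beside 49.2% of all genes tested. The test takes counting noise as the only error and reads as independent, and where libraries are said to differ below, it is in this sense. They were Stat3 (adjusted p = 1.66e-08), Jak2 (adjusted p = 4.36e-07), Cish (adjusted p = 0.00042), Tyk2 (adjusted p = 0.000674), Jak1 (adjusted p = 0.0121) and Stat6 (adjusted p = 0.0237). Socs3, Stat5a, Stat5b and Socs1 did not pass, with adjusted p from 0.0912 to 0.377. The share among the 10 genes is near that of all genes. Stat3 had 139, 127 and 123 CPM and Jak2 had 62.6, 54.6 and 53.6 CPM in replicates 1, 2 and 3, and in both replicate 1 was the high library. The differences were small, with the highest library 1.17 times the lowest in Jak2, 1.13 times in Stat3 and 1.04 times in Jak1 as CPM.

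All 6 of these genes were highest in replicate 1 on the CPM scale, as were 40.5% of the genes called. Genes both called and highest there made up 6 of the 10 and 19.9% of all genes tested. Without replicate 1 only Cish still passed (adjusted p = 0.00739), with 27.5% of genes called. Without replicate 3 Stat3, Jak2, Tyk2 and Jak1 passed, with 34.4% of genes called, and without replicate 2 all but Jak1 did, with 40.9%. The order of the libraries depends on the scale. On the deposited TPM scale replicate 2 was the lowest library for 8 of the 10 genes, beside 42.9% of all genes, and replicate 1 the highest for 6 (29%). On the CPM scale replicate 1 was the highest for 8 (37.8%) and replicate 3 the lowest for 7 (34.4%). Jak1, Stat6 and Stat5b were highest in replicate 3 by TPM, as were 58.6% of all genes, and in replicate 1 by CPM. No gene of the 10 reached 1.5-fold between libraries by TPM (23.3% of all genes), and by CPM Cish did (19.9%).

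**Figure D3:**
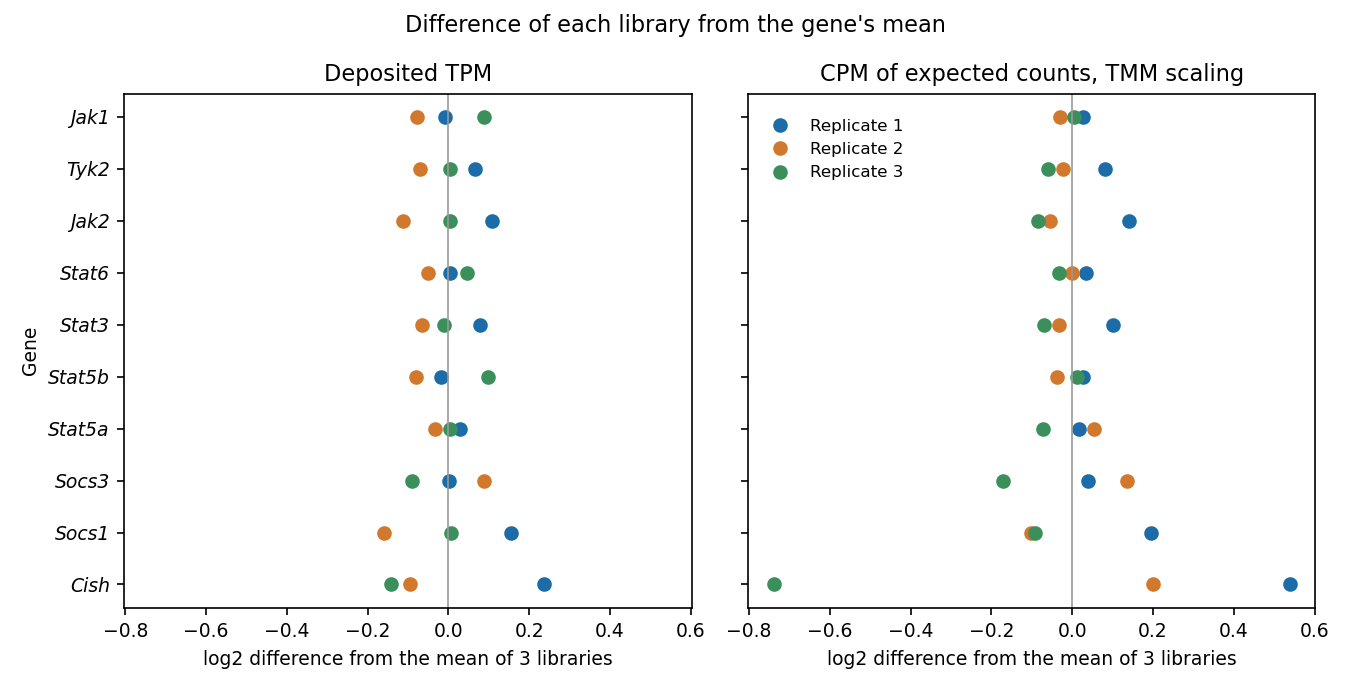
Log2 difference of each library from the mean of 3 libraries for each gene, from deposited TPM on the left and from CPM with TMM scaling on the right. Replicate 2 is lowest for 8 genes by TPM, and replicate 1 is highest for 8 genes by CPM. Cish spans 1.30-fold by TPM and 2.42-fold by CPM.

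Other gene lists moved with replicate 1. The 5 nuclear RNAs, with 3 at 1 TPM or more and Meg3 at 0, summed to 648, 427 and 341 TPM in replicates 1, 2 and 3. The 8 interferon-stimulated genes, all at 1 TPM or more, summed to 393, 333 and 307 TPM. Replicate 1 was the high library in both lists. The 7 cell division genes, with 6 at 1 TPM or more, summed to 70.2, 80.9 and 135 TPM, and the 6 late response genes, with 3, to 31.5, 64.5 and 156 TPM. Both sums were lowest in replicate 1 and highest in replicate 3. Ccl5 and Saa3 carried the late response sum, while Cxcl10 ran the other way, with 14.8, 5.89 and 7.17 TPM. The part of these lists in the differences between libraries was not tested.

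By SD of log2(TPM + 1), the 8 genes that average at least 1 TPM had a median of 0.07 over the 3 libraries, beside 0.10 for the 9872 genes tested at that level. On the log2(CPM + 1) scale these medians were closer, at 0.068 and 0.082. By TPM, Stat5a had the smallest SD of the 10 genes, at 0.03, and Jak2 the largest, at 0.10. The ranking depends on the scale. With a pseudocount of 0.1 the SD of Cish was 0.16 and that of Socs1 0.13, against 0.11 for Jak2. As log2(CPM + 1), Cish had the largest SD, at 0.35, and Jak1 the smallest, at 0.03. From expected counts, the gene-wise coefficient of variation estimated by edgeR was between 5.97% and 7.84% for the kinase and STAT genes. For Socs3 it was 16.5%, for Socs1 21.4% and for Cish 36.2%. The wider values belong to the genes with the fewest counts.

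One transcript held over 75% of the level for each gene other than Cish in the first table. It was Stat6-201 with 98.1% ± 0.711 of the TPM of its gene (SD, n = 3), Jak1-201 with 97.0% ± 0.455, Tyk2-203 with 92.5% ± 2.71 and Socs1-201 with 92.7% ± 2.68. Socs3-201 held 100% in every library, Stat3-203 88.9% as given above, and Stat5a-202 80.3% ± 3.97. In Jak2 and Stat5b most of the rest lay in a second transcript with the same coding sequence and another first exon. Jak2-202 held 80.03% ± 3.65 and Jak2-204 20.0% ± 3.65, both with 1132 codons. Stat5b-201 held 76.2% ± 1.30 and Stat5b-202, whose first exon starts within the gene, 21.8% ± 1.18, both with 786 codons.

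The second table gave the same leading transcript in these 9 genes but a more even division. There Jak2-202 held 56.9% ± 4.38 and Jak2-204 43.1% ± 4.38, while Stat5b-201 held 65.5% ± 0.950 and Stat5b-202 32.0% ± 0.706. Socs1-201 held 84.1% ± 4.51, and Socs3-201 96.9% ± 5.43. Among the minor forms of Stat5a, Stat5a-203 held 8.06% ± 3.13 and Stat5a-206 7.64% ± 1.75 in the first table, against 4.90% ± 0.532 and 14.3% ± 3.41 in the second. By expected counts in the first table, Stat5a-203, of 3605 bases, held 8.45% ± 3.17 of the gene. Stat5a-206, of 617 bases, held 0.917% ± 0.211, from 10.06, 10.13 and 11.34 counts in replicates 1, 2 and 3. Transcripts annotated as noncoding held at most 3.53% of the mean TPM in the first table for the genes other than Cish, beside a median of 4.22% over 7745 protein-coding genes that have such a transcript. In the second table they held 12.1% ± 5.43 of Stat3, from 16.2%, 14.1% and 5.93% in replicates 1, 2 and 3, beside a median of 7.51%.

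**Figure D4:**
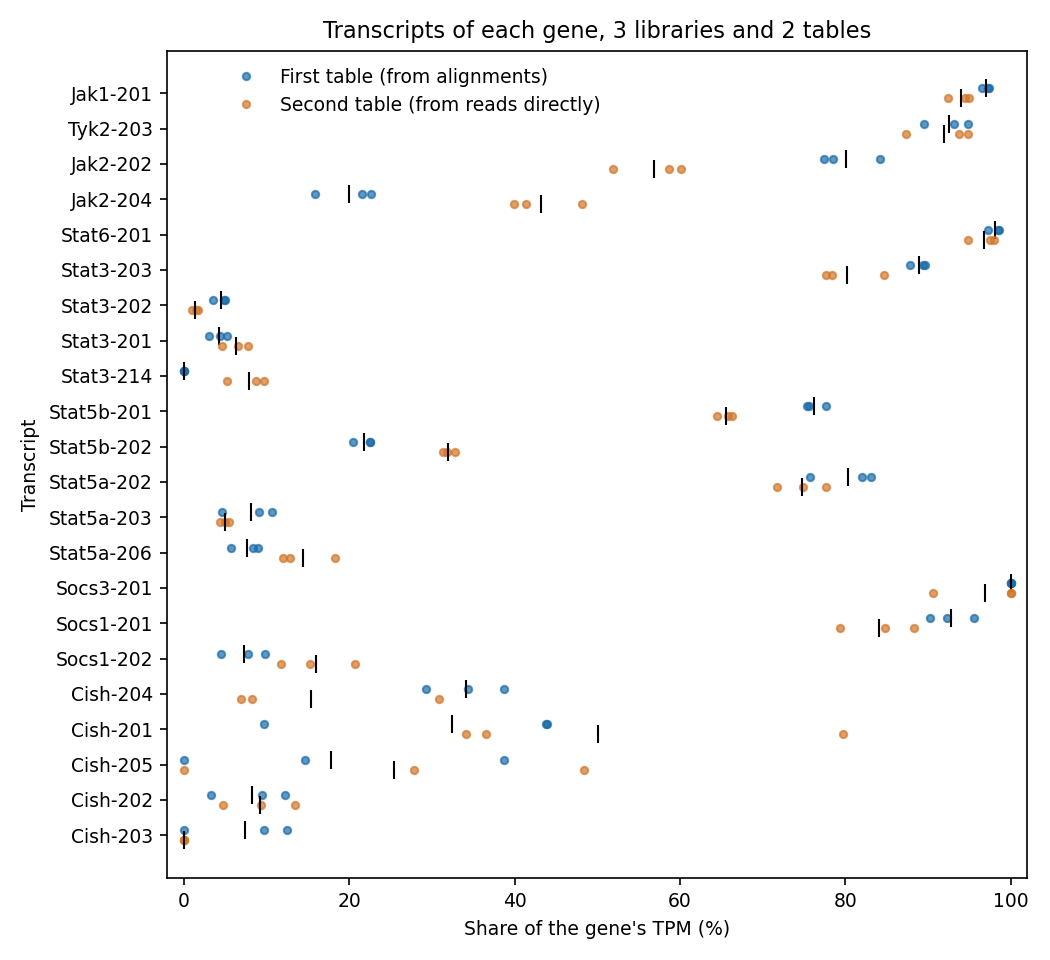
Share of the gene's TPM in each transcript, in percent, for 3 libraries (points) and their mean (black ticks), from the table derived from alignments and the table derived from reads directly. The 2 tables give similar shares for Jak1-201 and Stat6-201 and different ones for Jak2-202, with 80.03% in the first table and 56.9% in the second.

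Summed per gene and rescaled over protein-coding genes, levels in the second table were close to those of the first. The mean log2 ratio of second to first was between -0.05 and 0.09 for 9 of the 10 genes and 0.15 for Stat3. For Cish it was 0.54, -0.23 and -0.43 in replicates 1, 2 and 3. Over 9264 genes the central 90% of such ratios ran from -0.15 to 0.40.

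The rest of the pathway was read from 65 further genes. Of 3 other JAK and STAT genes, 2 reached 1 TPM in each library. Stat2, a transducer of the type I interferons, had 28.9, 27.2 and 26.3 TPM in replicates 1, 2 and 3 (27.5 ± 1.35 TPM, SD, n = 3), between Stat6 and Stat3 in each library. Jak3, the kinase of the common gamma chain, had 4.93 ± 0.383 TPM, and Stat4, the transducer of IL-12, 0.590 ± 0.070 TPM. Stat2 differed between libraries in the chi-square test, and Jak3 and Stat4 did not pass. Counts of genes that differed in this and the following lists stand beside 49.2% over all genes tested.

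Of 5 other SOCS genes, 4 reached 1 TPM in each library. Socs6, which is linked to receptor tyrosine kinases, had 38.5, 42.6 and 42.9 TPM (41.4 ± 2.46 TPM, SD, n = 3). It was the highest SOCS gene and the one of the 5 that differed between libraries. Socs4 had 4.57 ± 0.318, Socs5 4.14 ± 0.389, Socs7 2.82 ± 0.144 and Socs2, an inhibitor of growth hormone signalling, 0.273 ± 0.0404 TPM. All 10 other inhibitors reached it too. The phosphatase genes Ptprc (CD45), Ptpn6 (SHP-1) and Ptpn1 (PTP1B) led them, with 59.5 ± 2.22, 46.4 ± 2.15 and 35.5 ± 1.03 TPM. The STAT inhibitors Pias2 and Pias3 were lowest, at 4.43 ± 0.281 and 3.25 ± 0.402 TPM. In this list 4 of 10 genes differed between libraries.

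**Figure D5:**
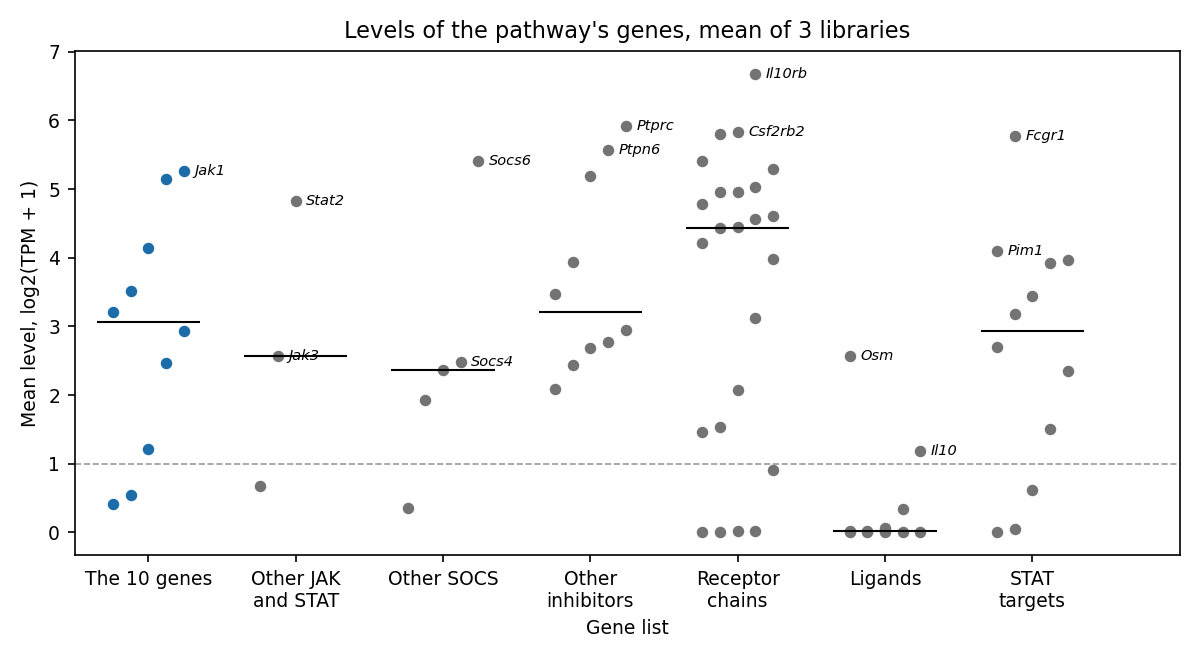
Mean level over 3 libraries as log2(TPM + 1) for the 10 genes (blue) and 6 lists of further pathway genes (grey). Black bars are list medians and the dashed line marks 1 TPM. Receptor chains have the highest median and ligands the lowest.

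Of 24 receptor chains, 19 reached 1 TPM in each library, with a list median that averaged 20.4 TPM over libraries. The highest were Il10rb, the chain shared by IL-10 family receptors, with 101 ± 6.13 TPM, Csf2rb2 with 56.2 ± 4.27 TPM and Ifnar2, of the type I interferon receptor, with 55.0 ± 3.47 TPM. Csf2rb2 is a close relative of Csf2rb, which had 41.3 ± 3.32 TPM. The division of reads between those 2 may therefore be uncertain, and it was not examined. The prolactin receptor Prlr and the oncostatin M receptor Osmr were listed at 0 in all libraries. Of the 20 chains tested, 14 differed between libraries, beside 49.2% of all genes.

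The ligand genes were mostly at or near 0. Of 11, the cytokine gene Osm alone reached 1 TPM in each library, with 5.54, 4.20 and 5.0 TPM. Il10 had 1.52, 0.91 and 1.38 TPM, and Il4, the third highest, 0.28, 0.21 and 0.32 TPM. Ifng, Il13, Csf2, Csf3 and Lif were listed at 0 TPM throughout, though Lif had 1 expected count in replicate 2. Osm and Il10 were the 2 ligands tested, and both differed between libraries. Of 12 documented STAT targets besides the SOCS genes, 9 were at 1 TPM or more. Fcgr1, an Fc receptor induced by interferon gamma, had 53.9 ± 5.25 TPM, the kinase gene Pim1 16.1 ± 1.45 TPM and Irf9, which joins STAT2 in a transcription factor complex, 14.7 ± 0.556 TPM. The STAT6 targets Arg1 and Retnla had 0.08, 0.02 and 0.02 TPM and 0 TPM, while Chil3, another STAT6 target, had 4.21, 4.54 and 3.60 TPM. Of 10 targets tested, 5 differed between libraries, a share close to the 49.2% of all genes. No gene of these lists that averages at least 1 TPM reached 2-fold between its highest and lowest library.

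Patterns over 3 libraries were also compared by Euclidean distance of centred log2(TPM + 1), among 54 genes of these lists that average at least 1 TPM. Such a distance over so few libraries is a description. The gene nearest to both Stat5b and Jak1 was the interferon receptor gene Ifnar1, at 0.0027 and 0.0064. Ptprc was nearest to Stat6 (0.0078), Socs7 to Cish (0.0059) and Ptpn1 to Socs3 (0.0164). Il4ra, the IL-4 receptor chain, was nearest to Stat3 (0.0160) and to Jak2 (0.0273), Stat3 to Tyk2 (0.0189), Tyk2 to Socs1 (0.0182) and Il6ra to Stat5a (0.0274). The log2(TPM + 1) scale shrinks the swings of genes below 1 TPM, so the matches of Cish and Socs1 do not show like ratios. From highest to lowest library, Cish spanned 1.30-fold by TPM and Socs7 1.10-fold. For Socs1 it was 1.24-fold and for Tyk2 1.10-fold. By TPM the pattern of Jak1, Stat5b and Ifnar1 was low in replicate 2 and high in replicate 3, while that of Stat3, Jak2, Tyk2, Socs1 and Il4ra was low in replicate 2 and high in replicate 1.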

How the data were processed

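The 3 total RNA libraries of 1 group each came with a gene table and a pair of transcript tables. Per the file headers, the gene table and one transcript table (here the first) have expected counts and TPM from alignments to mm10 with the M21 annotation, made by the authors, and their columns are those of RSEM. The other (here the second) has estimated counts and TPM, deposited with the columns of kallisto and quantified from reads without alignments. Which aligner, quantifier and versions were used, and whether reads were stranded or paired, is not given in the sources used here.

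Members and lists were chosen with earlier results of these data known. Levels are means and SD of deposited TPM, and differences use a pseudocount of 1. Expected counts were rounded for a chi-square test per gene against TMM effective library sizes (edgeR 4.0.16, R 4.3.3), keeping genes whose counts sum to at least 30, at a Benjamini-Hochberg threshold of 0.05. The test was checked on simulated counts with counting noise alone, so the check does not cover the wider variation between real libraries. An edgeR fit of the intercept alone gave coefficients of variation (common value 14.4%). DESeq2 1.42.0 size factors were one alternative. The alternatives listed in the closing section also cover the TPM scale, pseudocount, filter, table and left-out libraries. 2 listed genes are not reported here. In each list the 3 highest and 2 lowest genes are named, with transcripts at 5% or more. Protein-coding genes held 24.2%, 24.1% and 26.3% of deposited TPM, and 17.6%, 9.16% and 8.32% in the second table, so that table was rescaled over protein-coding genes. It holds no row for 86 scaffold genes. Promoters are from RefSeq (GRCm38.p6), matched by symbol for all 10 genes.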

Additional observations from a re-analysis of the deposited data

How the results depend on the processing

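No comparison of groups, paired or not, was possible because the series has a single group. Differences between genes were taken within each library. The 17 differences between genes had 136 alternative values, and 135 kept the sign of their mean. The exception was Socs1 minus Cish, -0.095 with posterior mean TPM, and the cause was not tested. In the second table its mean stayed positive, at 0.03 ± 0.09 (exact permutation p = 0.75) and, rescaled, 0.25 ± 0.39 (exact permutation p = 0.5), but its sign differed between libraries. The genes differing between libraries numbered 6645 and, leaving out each library in turn, between 3516 and 5192, where fewer samples are tested. Of the 10 genes, 6 differed, and between 1 and 5 with a library left out. With library sizes from the sum of counts 7 differed, Stat5b being added, and 5 by the second table, Stat6 being lost. DESeq2 size factors, other count minimums of 10 and 100, and the posterior standard deviation left 6. TPM rescaled over protein-coding genes, or taken from the second table, moved the level of all 10 genes by more than 1 SD, since the scale itself changes. The alternatives chosen after seeing the data were the second table rescaled over protein-coding genes, for levels and for differences, and the spread on the CPM scale. Depth limits Socs1 and Cish most, with 33 to 109 counts per library.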
